A study of Rattus norvegicus with 10 samples.

Results

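The untreated transgenic hippocampus is described here from the 5 of the series' 10 mRNA libraries whose treatment label reads No Treatment. All 5 came from female TgF344-AD rats (Rattus norvegicus) that ate plain rodent chow and were 11 months old when their left hippocampus was taken, so transgene, sex, age, tissue side and diet were shared by every animal. Each library is 1 rat and is called library 1 to 5 after its number in the labels. The other 5 libraries, from transgenic females fed BT-11, were not used, and wild-type animals were not analysed here. The design text calls the animals male in one place and female in the others, and the sample labels say female. The question taken from the labels is what an untreated group looks like by itself: which transcripts were abundant, which cell types they mark, and how far 5 animals of 1 group differed. A single group has nothing to be tested against, so no p-value is given and every statement is a description with its spread over 5 animals.

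The hippocampus is a folded sheet of cortex in which excitatory granule cells of the dentate gyrus feed pyramidal cells of CA3, which feed those of CA1, with CA2 between them. Inhibitory interneurons, astrocytes, myelinating oligodendrocytes, microglia and blood vessels make up the rest of the tissue, and the choroid plexus, which makes cerebrospinal fluid, lies in the ventricle beside it. TgF344-AD rats carry mutant human transgenes, APP among them, driven by the mouse prion promoter, and are known to develop amyloid plaques, tau pathology and gliosis with age. The labels do not say how the borders of the piece taken were set. In bulk tissue, fewer cells of a type and less RNA per cell cannot be told apart.

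Counts in the deposited transcript table summed to 18666015, 15412425, 13721673, 15483077 and 19700443 in libraries 1 to 5. Levels within a gene are given as CPM (counts scaled to a library total of 1000000), and levels between genes as TPM (scaled likewise after each count is divided by the spliced transcript length in the table). Between 11584 and 11689 genes reached 1 CPM per library, and 11276 did so in all 5. Ribosomal RNA held 10.4% to 11.1% of the counts. Of the 5 libraries, library 4 stood apart by its choroid plexus transcripts and library 3, also the shallowest, by its myelin transcripts.

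The counts were spread over many genes. At a mean of at least 10 CPM stood 8572 genes, with 98.5% of the counts, and 584 genes together held 50% of the counts. The 10 most abundant genes by CPM held 13.9% and the top 1000 held 59.4%; without ribosomal RNA the top 10 held 4.20%. Per length, Rn18s at 81266 ± 3309 TPM and Rn28s at 18507 ± 1285 TPM (SD, n = 5 for these and all later ± values) stood first, and these are ribosomal RNAs rather than messengers.

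Bc1 was the most abundant transcript per length after them, at 9793 ± 2149 TPM. By CPM it was 164th, at a mean of 666 CPM. It is a short untranslated RNA of rodent neurons, made by RNA polymerase III and carried into dendrites, where it is known to restrain translation. Its level was 10038, 10004, 12354, 6379 and 10191 TPM in libraries 1 to 5, so library 4 was lowest and library 3 highest. The transcript is 153 bases long in the table and spans 218075359 to 218075512 on chromosome 1 (rn6, plus strand, as deposited). Because Bc1 is the parent of the many ID repeats of the rat genome, reads from repeat copies and from Bc1 cannot be told apart. Its start is shown because Bc1 is made by RNA polymerase III. Capitals mark the A box, an internal element of RNA polymerase III genes (TAGCNNAGNGG, searched on both strands).
Bc1, first 50 transcribed bases, RefSeq GRCr8 chr1:209502897-209502946, plus strand: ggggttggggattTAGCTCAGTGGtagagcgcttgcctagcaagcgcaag
The same letters stood in 54 of 33469 RefSeq windows of 50 transcribed bases, or 0.161%. All fixed letters of the pattern are letters that Bc1 carries, so its match and the share elsewhere are not a test. The Bc1 match is a description and says nothing of use.

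The first messengers in the ranking are made largely or wholly by glia or by many cell types, as the plot of the most abundant genes shows. Mbp, which encodes a membrane-compacting protein of myelin, averaged 7626 ± 2771 TPM. Apoe, the lipid carrier made mainly by astrocytes and the strongest common genetic modifier of Alzheimer risk, averaged 7257 ± 1079 TPM. Cst3, a secreted cysteine protease inhibitor of glia, followed at 4530 ± 595 TPM, and Fth1, the iron-storing ferritin heavy chain, at 4374 ± 895 TPM. All 4 of these genes were highest in library 3.

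Transcripts of neurons, and others made in many cells, followed. Zwint, named for a kinetochore partner and also made in neurons, averaged 3781 ± 416 TPM. Calm2, which encodes calmodulin, averaged 2827 ± 165 TPM. Nrgn, the postsynaptic calmodulin binder neurogranin, averaged 2954 ± 346 TPM and Snap25, a SNARE protein of vesicle fusion, 2546 ± 427 TPM. Hpca, which encodes the calcium sensor hippocalcin, averaged 2410 ± 669 TPM and spread more than its neighbours, from 1445 TPM in library 2 to 3211 TPM in library 3. Ubiquitin, actin and chaperone genes lay among them: Ubb at 3867 ± 119, Actb at 2778 ± 161 and Hspa8 at 3143 ± 249 TPM. Neighbours in this order mostly lay within each other's SD, for example Eef1a1 at 3208 ± 118 and Hspa8, so single ranks are not separable there.

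**Figure D1:**
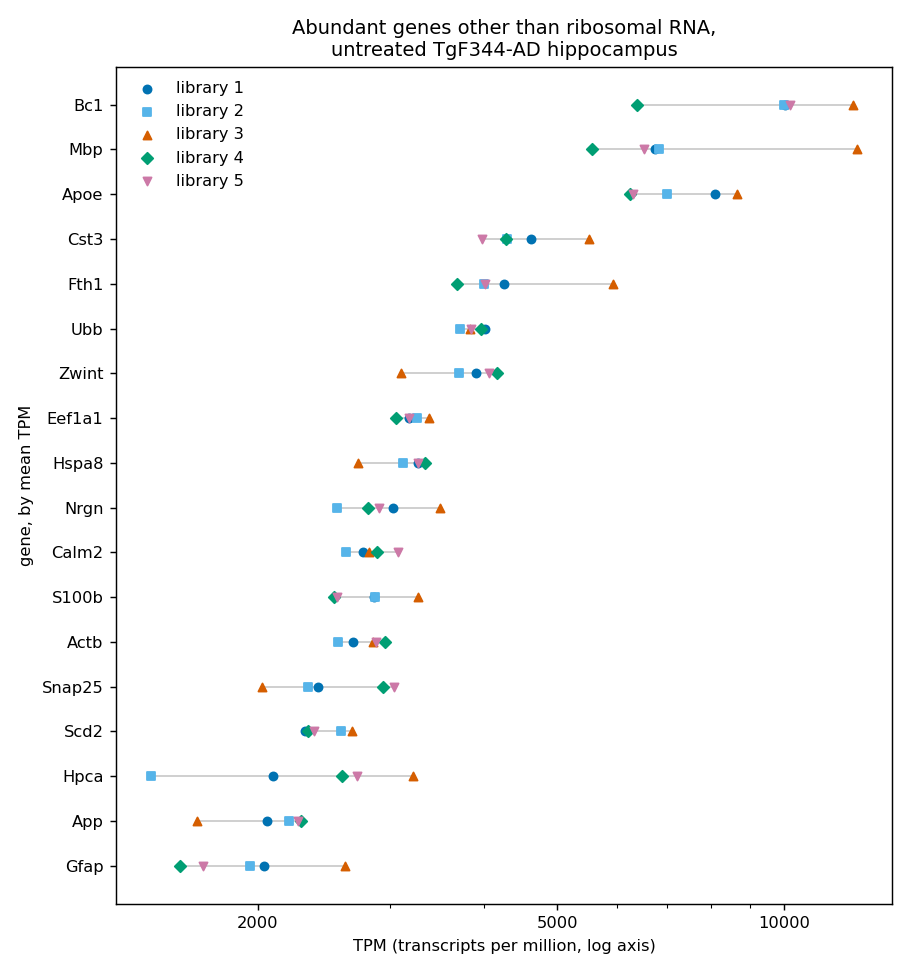
TPM on a log axis of the genes described here that are among the 30 with the highest mean TPM other than ribosomal RNA, 1 point per untreated library and a grey line from the lowest to the highest library. Bc1, Mbp and Apoe stand above the others, and Mbp, Hpca and Bc1 have the widest lines.

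Ranking by share of reads moved long transcripts up. Scd2, the fatty acid desaturase of brain, was the 4th gene by CPM (5489 CPM) and the 22nd by TPM. Map1b and Map1a, giant microtubule-associated proteins of axons and dendrites, were 6th and 8th by CPM (3517 and 3009 CPM) but 172nd and 171st by TPM. Of the top 30 by each scale, 18 genes were shared. Mbp, Apoe, Snap25, Hspa8, Ubb, Actb, Calm2 and Scd2 have fractional counts in the table, which come from reads divided between transcripts or copies, so their levels depend on that division.

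Oligodendrocyte, astrocyte and neuronal genes all gave large summed levels. The 16 measured genes of mature oligodendrocytes and myelin summed to 12579 ± 3303 TPM, the 15 astrocyte genes to 11315 ± 1037 TPM and the 12 genes of excitatory neurons to 7752 ± 483 TPM. GABAergic interneuron genes (16 measured) summed to 1196 ± 149 TPM, homeostatic microglia genes (17 measured) to 1521 ± 203 TPM, oligodendrocyte precursor genes (12 measured) to 902 ± 158 TPM, endothelial genes (18 measured) to 686 ± 84.9 TPM and pericyte and smooth muscle genes (13 measured) to 235 ± 45.3 TPM. These sums depend on which genes a list holds, and they are not cell numbers.

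Single genes of these lists ranged widely in level. Gfap, the intermediate filament of astrocytes that is known to be raised in gliosis, had 2466, 2296, 3199, 1841 and 1992 CPM in libraries 1 to 5. S100b, a calcium binder of astrocytes, had a mean of 2812 ± 301 TPM and Glul, which encodes glutamine synthetase, 1357 ± 82.4 TPM. Among neurons, Slc17a7, the vesicular glutamate transporter of hippocampal excitatory cells, had 1447 ± 175 TPM, and Camk2a, the abundant kinase of the postsynaptic density, 1718 ± 120 TPM. Gad1 and Gad2, which make GABA, were less abundant per length, at 146 ± 31.3 and 62.0 ± 21.5 TPM. Microglia were represented by Ctss, a lysosomal protease, at 531 ± 59.5 TPM and by Csf1r, the receptor on which microglia depend, at 75.4 ± 9.50 TPM, and Aif1, a microglial actin binder, stood at 66.2 ± 10.5 TPM.

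Blood and peripheral immune transcripts were low, in animals that had been perfused: the red cell list summed to 3.29 to 5.36 CPM, the neutrophil list to 4.37 to 6.996 CPM and the lymphocyte list to 5.58 to 11.3 CPM. Only 6 of 10 listed red cell genes, 4 of 10 neutrophil genes and 9 of 14 lymphocyte genes were measured, so these sums cover part of each list. Hbb, the beta globin of red cells, had 4.26, 4.41, 2.46, 2.44 and 3.77 CPM in libraries 1 to 5, and the 5 other measured red cell genes averaged under 1 CPM. S100a8 and S100a9, which neutrophils make in bulk, stayed at or under 0.146 CPM in every library, where 3 counts correspond to between 0.152 and 0.219 CPM. Most of the neutrophil sum came from Csf3r, the receptor for granulocyte growth factor, at 5.57 ± 0.888 CPM. The T cell genes Cd3e and Lck averaged 4.10 and 2.15 CPM, and 7 of 9 measured lymphocyte genes stayed under 1 CPM in all libraries. Cd3e had 7.80 CPM in library 3 and 2.99 to 3.32 CPM in the others. Globin genes have near-identical copies, so their split is uncertain.

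The tissue label fits the defining markers of the hippocampus, which were present in every library. Prox1, the transcription factor that defines dentate granule cells, had 44.0, 77.0, 44.3, 49.7 and 65.0 CPM in libraries 1 to 5. Wfs1, an endoplasmic reticulum protein of dorsal CA1 cells, had 387, 345, 457, 270 and 215 CPM. Grik4, a kainate receptor subunit of CA3 cells, had 69, 49.1, 77.7, 95.7 and 100.2 CPM. Each of the subfields was thus detected in all 5 animals, and the library with most of one was not the library with most of another.

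Subfield genes did not share one order across the animals. Most genes of CA2 and CA3 were lowest in library 2. Cpne4, a copine of CA3 cells that spans 113105814 to 113586419 on chromosome 8 (rn6, plus strand), had 162, 127, 185, 261 and 296 CPM in libraries 1 to 5. Amigo2, an adhesion molecule of CA2 and CA3, had 14.8, 9.99, 21.6, 26.7 and 23.7 CPM. Of the 8 genes in this list with a mean of at least 10 CPM, 7 were lowest in library 2, which was the lowest library for 13.7% of all 8572 such genes. The highest library was 5 for 3 of the 8, library 4 for 2, library 3 for 2 and library 1 for 1. Genes of CA1 ran otherwise, with 4 of 6 lowest in library 5 (18.7% of all genes) and 4 of 6 highest in library 3 (32.8% of all genes). Dentate genes were highest in library 2 for 7 of 9 members, against 20.2% of all genes.

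Hippocalcin, which is abundant in pyramidal cells, spread as widely. Hpca had 1481, 991, 2296, 1759 and 1863 CPM, a spread of 2.32 times with library 2 lowest, as for the CA2 and CA3 genes. Whether the piece of tissue taken differed between the animals was not tested.

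App, which encodes the amyloid precursor, was the 25th gene by TPM at 2094 ± 258. Its level was 2167, 2248, 1771, 2320 and 2322 CPM in libraries 1 to 5, so library 3 was apart below the other 4. Reads of the human APP transgene that align to the rat gene cannot be told apart from rat App in these counts. Mapt, which encodes tau, was among the steadier genes at 376 ± 11.8 TPM.

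Apoe, Clu and Trem2, which glia make, were highest where App was lowest. Apoe had 4178, 3502, 4531, 3109 and 3173 CPM, Clu, the secreted chaperone clusterin, had 1202, 1102, 1421, 1088 and 990.5 CPM, and Trem2, the microglial lipid receptor, had 11.6, 10.8, 15.9, 10.3 and 9.49 CPM. Of the 23 genes in that list with a mean of at least 10 CPM, 9 were highest in library 3 and 12 were lowest there, against 32.8% and 30% of all genes, so the first count is near the share of all genes. Prnp, the prion protein gene whose mouse promoter drives the transgenes, had 1569 ± 111 TPM, and Lancl2, which encodes the reported protein target of BT-11, 73.1 ± 9.66 TPM.

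Most genes varied little between the 5 animals. Over the 8572 genes, the median coefficient of variation was 9.64%, against a median of 3.71% from counting alone, and the highest library was a median of 1.27 times the lowest. In 2847 genes, or 33.2%, that ratio was under 1.2. The common biological coefficient of variation, the spread beyond counting noise as edgeR estimates it over 11609 genes, was 13.5%. The 193 genes whose highest library was at least 2 times the lowest are called variable here and make up 2.25% of the 8572. Without library 3 the number was 98, so that library bore on much of it.

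**Figure D2:**
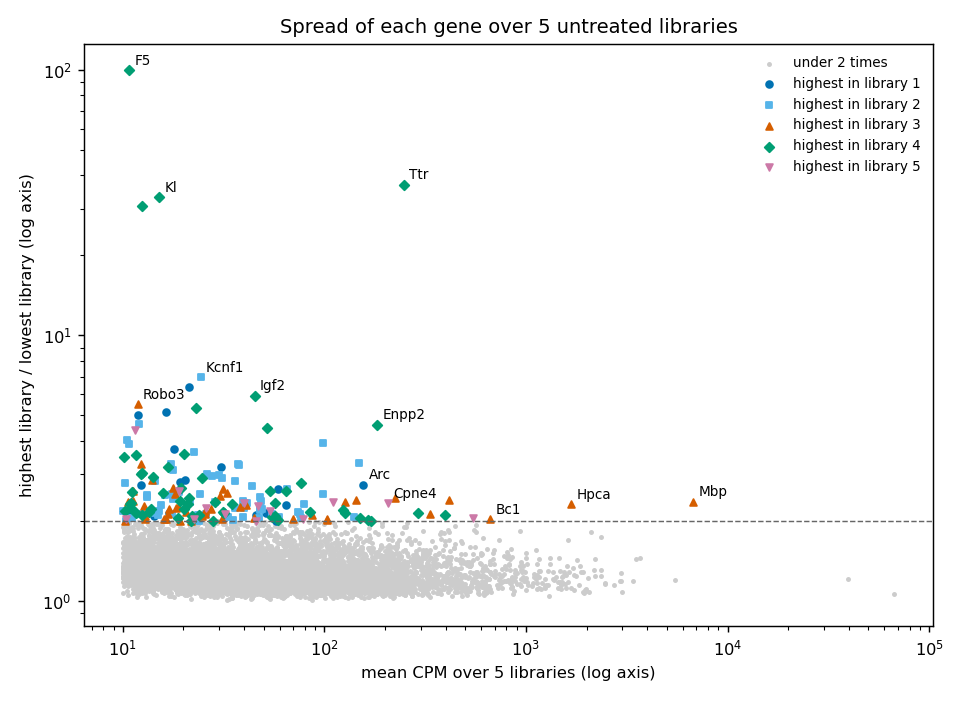
Ratio of the highest to the lowest untreated library against mean CPM, both on log axes, for genes with a mean of at least 10 CPM; coloured symbols are the 193 genes past 2 times (dashed line), by their highest library. F5, Kl and Ttr stand above 30 times and are highest in library 4, while Mbp, Hpca and Bc1 pass the line at high abundance and are highest in library 3.

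Some abundant genes hardly differed between the animals. Srsf3, a splicing factor, had 99.5, 100.4, 100.9, 102 and 101 CPM in libraries 1 to 5, a highest to lowest ratio of 1.03. Washc2c, of the endosomal WASH complex, and Ndufs4, a subunit of respiratory complex I, had ratios of 1.03 each. These 3 have the smallest ratios among genes with a mean of at least 100 CPM and were chosen after their values were seen.

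Variable genes were shared unevenly among the libraries. Library 1 was the highest for 18 of them (0.21% of the 8572 genes), library 2 for 62 (0.723%), library 3 for 44 (0.513%), library 4 for 55 (0.642%) and library 5 for 14 (0.163%). As the lowest library, library 3 was named by 80 and library 4 by 52. By leading log2 distance over the 500 most different genes, library 4 was farthest from the others (a mean of 1.18), followed by library 3 (1.14), and libraries 1 and 2 were the closest pair (0.744). The order differed by Pearson correlation of log2(CPM + 1) across the 8572 genes, which are not independent replicates: library 3 had the lowest values with the others, from 0.972 to 0.987, and libraries 4 and 5 were the closest pair at 0.994. The gene lists held 37 of the 193 variable genes and 521 of all 8572. For 12 of the 40 lists the summed CPM of the highest library was at least 1.5 times that of the lowest, and for 6 without library 3. Among the 12 were lists of low level: lymphocytes, neutrophils, hypothalamus and pituitary, and red blood cells, with mean sums of 7.14, 5.86, 8.20 and 4.32 CPM. Ependyma, also among them, summed to 32.0 CPM. The ratios of these lists rest on low counts.

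**Figure D3:**
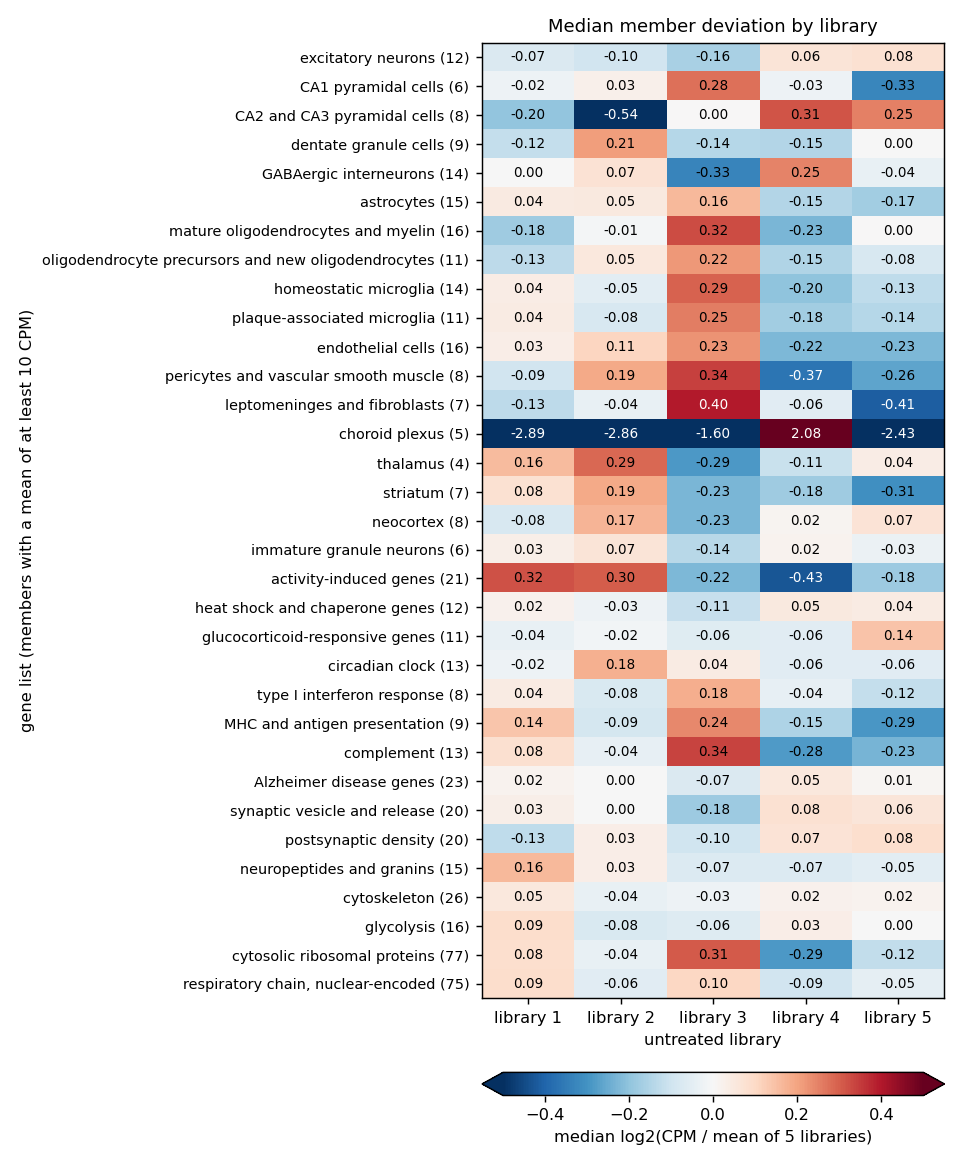
Median log2 deviation of the members of each gene list from their mean over the 5 untreated libraries, by library, for lists with at least 4 members at a mean of 10 CPM or more (number in brackets). The colour scale ends at 0.5 in either direction and the printed values go beyond it: choroid plexus reads 2.08 in library 4, through which Kl and F5 of its 5 members pass the filter, activity-induced genes 0.32 and 0.30 in libraries 1 and 2, and myelin 0.32 and complement 0.34 in library 3.

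The widest ratios between animals were those of choroid plexus transcripts, in library 4. Ttr, which encodes transthyretin, the main secreted protein of this epithelium and a carrier of thyroxine, had 33.5, 28.4, 81.6, 1048 and 46.1 CPM in libraries 1 to 5. The gene spans 15532964 to 15540178 on chromosome 18 (rn6, minus strand). Library 4 stood alone above the others, and library 3 was next.

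Other genes of the epithelium followed it. Kl, the anti-ageing co-receptor klotho, had 1.98, 2.08, 3.28, 65.6 and 2.59 CPM. F5, coagulation factor V, had 0.482, 1.43, 2.33, 47.9 and 1.83 CPM, the widest ratio among the 8572 genes with a mean of at least 10 CPM, at 99.4 times, though its lowest library held only 9 reads. Enpp2, the enzyme autotaxin, had 95.3, 119.8, 135, 440 and 122 CPM, where oligodendrocytes are a known further source. Kl and F5 reach a mean of 10 CPM only through library 4, so members past that mean are not counted here. Over all 22 measured members, whatever their level, library 4 was the highest for 19, against 18.0% of all genes with a count.

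The summed choroid plexus level was 160, 183, 263, 1871 and 214 CPM in libraries 1 to 5. Its mean was 538 ± 746 CPM with library 4 and 205 CPM without it. Enpp2, which oligodendrocytes also make, gave 95.3, 119.8, 135 and 122 CPM of the sums in libraries 1, 2, 3 and 5. The level without library 4 is thus not one of choroid plexus alone. Some genes outside the list, named for their wide ratios, also had library 4 on top. Mfrp, a membrane protein of eye and choroid plexus, had 1.61, 2.14, 6.92, 49.2 and 2.33 CPM. Like Kl and F5, Mfrp reaches a mean of 10 CPM only through library 4. Htr2c, a serotonin receptor abundant in this epithelium, had 36.2, 42.6, 24.2, 108 and 47.9 CPM. Igf2, a growth factor of choroid plexus and meninges, had 22.7, 21.5, 32.6, 127 and 21.4 CPM. Ace, the angiotensin-converting enzyme, had 13.1, 14, 11.9, 63.5 and 12.3 CPM.

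Ventricle-lining ependyma gave little signal, though library 4 was the highest for 8 of its 12 measured genes, against 18.0% of all genes with a count. None of its 12 measured genes averaged 10 CPM, and their sum was 26.1, 25.4, 32.7, 47.4 and 28.5 CPM. Foxj1, the regulator of motile cilia, was highest in library 4 at 11.3 CPM, against 3.18 to 4.45 CPM in the others. Ttr also remained well above the counting floor in the other 4 animals, where its lowest count was 437.

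**Figure D4:**
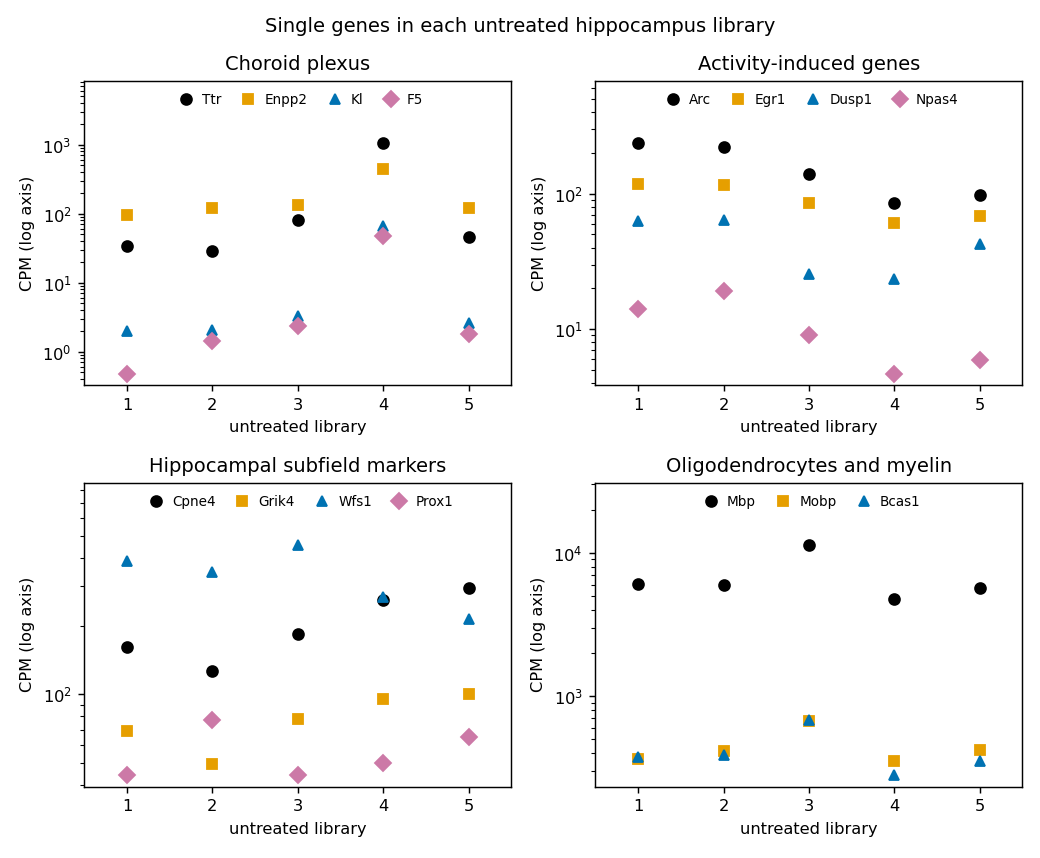
CPM on log axes of single genes in each untreated library, for choroid plexus, activity-induced, subfield and oligodendrocyte genes. Ttr, Enpp2, Kl and F5 are all highest in library 4, Arc, Egr1, Dusp1 and Npas4 are highest in libraries 1 and 2, Cpne4 and Grik4 are lowest in library 2, and Mbp, Mobp and Bcas1 are highest in library 3.

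Activity-induced genes, the immediate early and related genes that neurons switch on within minutes to hours of firing, were highest in libraries 1 and 2. Arc, whose messenger travels to active synapses, had 235, 222, 140, 85.8 and 97.2 CPM in libraries 1 to 5, and spans 115907097 to 115910542 on chromosome 7 (rn6, minus strand). Npas4, a factor induced by calcium entry, had 14, 19.1, 9.04, 4.71 and 5.89 CPM. Dusp1, the phosphatase that turns off stress-activated kinases, had 63.4, 63.6, 25.7, 23.4 and 42.7 CPM. In each case both libraries 1 and 2 lay above the other 3.

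The list as a whole showed the same order. Of its 21 members with a mean of at least 10 CPM, 9 were highest in library 1 and 7 in library 2, against 14.5% and 20.2% of all genes, and 12 were lowest in library 4, against 23.3%. Of these 21, 8 were variable genes, against 2.25% of all. The nuclear receptor Nr4a2 had 99.5, 103, 47.7, 57.4 and 60.4 CPM, and the zinc finger factor Egr1 had 117, 116, 84.6, 61.2 and 67.9 CPM. Not every member took part: Homer1 and Nr4a3 were highest in library 4 (84.6 and 81.3 CPM), and Bdnf, the growth factor of active neurons, had 62.1, 55.5, 51.9, 61.5 and 66.4 CPM.

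The upstream sequences of 3 of these genes are shown because they hold textbook response elements of the class. Dusp1 and Ier2, an early nuclear protein with 18.8, 17.8, 13.4, 8.85 and 12.6 CPM, carry the full cAMP response element (capitals, TGACGTCA, which reads the same on both strands). Egr2, a zinc finger factor with 10.0, 15.3, 5.25, 4.65 and 6.50 CPM, carries a CArG box (capitals), to which serum response factor binds. Each line gives the 250 bases before the RefSeq GRCr8 gene start, 5′ to 3′ on the gene's strand.
Dusp1, chr10:17184603-17184852, plus strand: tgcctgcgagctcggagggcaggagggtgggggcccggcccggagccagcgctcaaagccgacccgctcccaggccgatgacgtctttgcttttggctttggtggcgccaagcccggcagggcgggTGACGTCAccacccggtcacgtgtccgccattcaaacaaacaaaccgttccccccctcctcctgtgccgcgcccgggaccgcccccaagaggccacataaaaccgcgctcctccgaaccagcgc
Ier2, chr19:40399123-40399372, plus strand: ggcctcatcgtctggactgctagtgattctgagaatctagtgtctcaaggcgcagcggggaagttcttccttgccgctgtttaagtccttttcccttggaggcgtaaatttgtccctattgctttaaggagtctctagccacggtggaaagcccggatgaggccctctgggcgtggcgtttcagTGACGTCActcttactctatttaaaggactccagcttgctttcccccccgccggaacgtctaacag
Egr2, chr20:21054442-21054691, minus strand: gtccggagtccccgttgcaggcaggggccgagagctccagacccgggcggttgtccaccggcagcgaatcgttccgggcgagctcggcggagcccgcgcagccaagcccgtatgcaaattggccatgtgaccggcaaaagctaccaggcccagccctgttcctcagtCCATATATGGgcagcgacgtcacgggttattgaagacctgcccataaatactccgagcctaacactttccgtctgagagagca
Of the 25 genes in the list, 20 had a window in RefSeq, with 25 windows between them. The cAMP response element stood in 3 of the 20 genes (Btg2, Dusp1 and Ier2) and in 531 of all 33469 windows, or 1.59%. The CArG box stood in 2 genes (Egr1 and Egr2) and in 501 windows, or 1.5%. The list is counted by gene and the background by window, so these shares are not in like units. These matches are letters in a window, and a gene without one is not thereby free of such control.

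Further genes, named for their wide ratios, were high in libraries 1 and 2. Kcnf1, a modifying potassium channel subunit, had 34.0, 47.1, 6.78, 19.6 and 14.1 CPM. Cbln4, a secreted synaptic organizer, had 40.1, 39.6, 6.27, 13.8 and 6.80 CPM. Cplx3, a complexin of deep cortical layers, had 22.0, 22.7, 6.05, 4.91 and 4.87 CPM.

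Tbr1 and Cux2, both transcription factors of cortical neurons, were chosen from the more variable genes and were highest in the same animals. Tbr1, a factor of early-born and deep-layer excitatory neurons, had 93.4, 109, 65.2, 51.3 and 59.0 CPM. Cux2, a factor of upper layers, had 51.6, 59.8, 38.4, 32.0 and 25.5 CPM. Libraries 1 and 2 lay above the other 3 for both of these genes.

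The neocortex list did not put library 1 high by summed level or by its median member. By mean log2(CPM + 1) over its 12 measured members, library 1 was second to library 2, at 4.63, 4.84, 4.34, 4.54 and 4.55 in libraries 1 to 5. Of its 8 members with a mean of at least 10 CPM, 6 were highest in library 2, against 20.2% of all genes, while 0 were highest and 2 lowest in library 1. Its median member stood 0.17 log2 units above its mean in library 2 and at -0.08 in library 1. Its summed level was 552, 647, 507, 615 and 641 CPM in libraries 1 to 5, and library 5 was highest instead under TMM scaling, DESeq2 size factors and the authors' scaling. Striatum genes summed to 556, 572, 556, 465 and 428 CPM, with Ppp1r1b, the dopamine-regulated phosphatase inhibitor, at 111, 112, 129, 93.2 and 81.8 CPM. Thalamus genes summed to 158, 180, 128, 147 and 146 CPM. Whether more cortex beside the hippocampus, or more neuronal activity before death, moved with the transcripts of libraries 1 and 2 was not tested. The activity-induced genes and the single genes above were high in the same animals and cannot be told apart by library.

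Library 3 carried the most glial and vascular transcript. Mbp had 6036, 5936, 11339, 4792 and 5666 CPM in libraries 1 to 5, with library 3 apart. The gene spans 79406381 to 79437311 on chromosome 18 (rn6, plus strand). Mobp, a further myelin protein, had 368, 416, 673, 351 and 424 CPM.

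The myelin list summed to 11199, 11767, 18491, 10098 and 11596 CPM. Library 3 was highest for 14 of its 16 members, against 32.8% of all genes, and the median member stood 0.32 log2 units above its mean there. Outside that list, Bcas1, a protein of newly myelinating cells, had 379, 387, 678, 281 and 352 CPM, and Hapln2, which links matrix at nodes of Ranvier, 24.9, 28.6, 56.3, 21.2 and 25.6 CPM. Mbp comes from 6 table rows and its split over them is uncertain.

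Library 3 was also the highest for most astrocyte, microglial, endothelial and complement genes, where it was the highest for 32.8% of all genes. It was highest for 10 of 15 astrocyte genes, 14 of 14 homeostatic microglia genes, 13 of 16 endothelial genes and 11 of 13 complement genes, each count over members with a mean of at least 10 CPM. Of the 8 such genes of pericytes and smooth muscle, 4 were highest in library 3 and 3 in library 2. C1qa, the chain of the first complement component, had 113, 103, 138, 87.6 and 90.7 CPM, and C3, the central component, had 79.2, 71.6, 91.2, 58.6 and 64.5 CPM. Serping1, the inhibitor of the first component, had 18.5, 14.4, 30.7, 13.7 and 14.6 CPM. Cldn5, the tight junction protein of brain endothelium, had 92.1, 87.7, 119, 71.1 and 70.5 CPM. C1q chains belong to the microglia list as well, so these counts overlap.

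Neuronal genes of release were lowest in the same library. Of 20 genes of synaptic vesicles and release, 15 were lowest in library 3, against 30% of all genes, and 9 of 14 interneuron genes were. Snap25 had 2129, 1999, 1809, 2501 and 2605 CPM, Syt1, the calcium sensor of release, 489, 553, 380, 705 and 648 CPM, and Gad1 209, 216, 138, 248.6 and 217 CPM. The release list summed to 13372 CPM in library 3, against 14986 to 16426 CPM in the others, and TMM factors ran from 0.984 to 1.02 over the libraries. CPM are shares and absolute amounts were not measured. Whether a gain of other classes lowered these shares was not tested. Not all neuronal lists were lowest in library 3 by sum. Excitatory neuron genes summed to 6795 CPM there, against a mean of 6806, with 3 of 12 members highest and 2 lowest. Their median member stood at -0.16 log2 units there. Postsynaptic density genes summed to 10772 CPM, against a mean of 10592, with 6 of 20 members highest and 7 lowest. Dentate genes were lowest there by sum, at 521 CPM.

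Genes of the cytosolic ribosomal proteins shared their highest library and, for most, their lowest. All 77 with a mean of at least 10 CPM, of 84 measured, were highest in library 3, against 32.8% of all genes, and 75 of the 77 were lowest in library 4, against 23.3%. Rpl3 had 454, 429, 485, 379 and 407 CPM, and Rpl41, the shortest of them as a protein, 185, 159, 251, 138 and 160 CPM. No member reached a ratio of 2: the median ratio was 1.52, against 1.27 over all genes. Library 3 was also the highest for the family's summed level under TMM scaling, DESeq2 size factors and the authors' scaling.

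Transcript length moved with the libraries too. The 637 genes with transcripts of up to 1000 bases stood at median log2 deviations of 0.08, -0.05, 0.15, -0.12 and -0.08 in libraries 1 to 5, and the 572 genes over 6000 bases at -0.11, 0.09, -0.08, 0.05 and 0.03. Short transcripts were thus relatively high in libraries 1 and 3 and low in the other 3. The 68 ribosomal protein genes of up to 1000 bases stood at 0.31 in library 3 and -0.30 in library 4, against 0.13 and -0.11 for the 569 other genes of that length. With the median of its length class removed, the family stood at 0.17 in library 3 and -0.18 in library 4. The myelin list stood at 0.34 in library 3 after the same step. RNA integrity values are not among the sources used here, and their part in the length gradient was not tested.

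**Figure D5:**
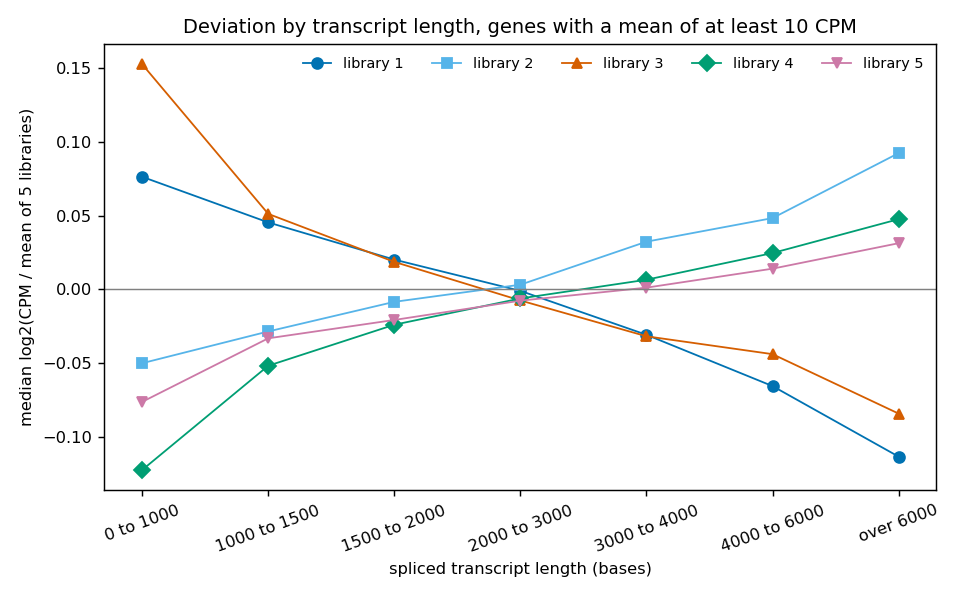
Median log2 ratio of CPM to the mean of the 5 untreated libraries, by spliced transcript length in bases, 1 line per library. Libraries 1 and 3 run from above 0 for transcripts up to 1000 bases to below 0 for those over 6000 bases, and libraries 2, 4 and 5 run the other way.

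Several functional lists differed little between the animals in summed level. Cytoskeleton genes (26 measured) summed to 26238 ± 688 CPM, genes of the postsynaptic density (20 measured) to 10592 ± 374 CPM, neuropeptides and granins (20 measured) to 3253 ± 150 CPM, and glycolysis genes (16 measured) to 10774 ± 480 CPM. Nuclear-encoded respiratory chain genes (80 measured) summed to 9470 ± 412 CPM, led by Atp5f1b, of the ATP synthase, at 1532 ± 65.6 TPM. None of these lists held a variable gene. In each the highest library was at most 1.12 times the lowest by sum. By member, the median ratio was 1.38 for neuropeptides and granins and 1.28 for the postsynaptic density, against 1.27 over all genes. It was 1.19 for cytoskeleton, 1.16 for glycolysis and 1.21 for respiratory chain genes.

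Summed levels of the stress, hormone and clock lists spread a little more, with the highest library 1.14 to 1.17 times the lowest. Their median member ratios were 1.25 (heat shock), 1.32 (glucocorticoid) and 1.30 (clock), under that of neuropeptides and granins. Heat shock genes summed to 7790 ± 468 CPM with library 3 lowest. Glucocorticoid-responsive genes summed to 695, 699, 708, 720 and 791 CPM, with Sgk1, a kinase induced by corticosterone, at 97.9, 109, 92.5, 118 and 144 CPM, highest in library 5, which stood apart from the other 4 for the list. Of the clock genes, 9 of 13 were highest in library 2, against 20.2% of all genes. Npas2, a partner of Bmal1, had 93.3, 106, 79.5, 53.0 and 51.8 CPM and was the 1 variable member, while Dbp, a clock output factor, had 124, 120, 118, 86.3 and 83.2 CPM. The hour of tissue collection is not given in the labels.

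Genes of immature granule neurons (8 measured) summed to 1399 ± 216 TPM, most of it from Stmn1, a microtubule-destabilizing protein (819 ± 201 TPM), and Tubb3, a neuronal tubulin (504 ± 62.7 TPM), which mature neurons also make. Dcx, a microtubule protein of immature neurons, had 22.0, 26.1, 19.1, 36.0 and 32.4 CPM, and Mki67, a marker of cycling cells, had 4.45, 6.16, 6.41, 4.78 and 5.33 CPM. None of 12 measured genes of dividing cells averaged 10 CPM, and their sum was 18.5 ± 1.78 CPM. Prl, the pituitary hormone prolactin, had 7.18 CPM in library 1 and 0, 0.874, 0 and 0.609 CPM in libraries 2 to 5, where a count of 0 allows up to 0.195 CPM in library 2 and 0.194 CPM in library 4.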

How the data were processed

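Libraries of the left hippocampus of 5 untreated female transgenic rats were used. Per the labels' protocols, RNA came from an RNeasy Mini preparation, the libraries keep strand, and an Illumina instrument read 50 bases from each end. The submitters' processing notes name build rn6 and the tools STAR (2.7.9a), DESeq2, Partek and bcl2fastq (2.19.1.403). The role of each tool, with the counting method, its use of strand and the annotation release, is not given in the sources used here. For each of 14806 transcript rows, the authors deposited an estimated count per library, without normalization. Of these values 85.4% are whole within 1e-06. The authors also deposited a normalized signal table, equal to the counts times a factor per library (0.822 to 1.15), which served only as an alternative scaling.

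Rows were summed to 13670 symbols (785 had several rows) and divided by the library total to give CPM. The length column of the deposited table holds spliced transcript lengths, so TPM replaced the planned coding length for levels between genes. Detection means 1 CPM, and variation was described over genes with a mean of at least 10 CPM. edgeR 4.0.16 gave the common dispersion (TMM, filterByExpr, intercept only, counts rounded to whole numbers), with limma 3.58.1, R 4.3.3, Python 3.11.15, pandas 2.3.3 and matplotlib 3.10.9. DESeq2 1.42.0 gave size factors as an alternative. The steps were tested on simulated data. Totals of 13721673 to 19700443 counts limit precision. At a mean of 10 CPM, counting error taken from a gene's mean count over the 5 libraries reached 7.82%. It is larger in a library with fewer reads of that gene. Counts are reads, so floors cover counting error only.

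The libraries and the 40 gene lists were chosen with earlier results of these data known. Named genes are the 30 with the highest mean CPM, the 20 widest ratios at a mean of at least 10 CPM, up to 5 most abundant and 3 most variable members per list, and App, Mapt, Apoe, Trem2, Gfap, Aif1, Snap25, Mbp, Ttr and Lancl2; not all are printed, and some are not reported here. Bc1, Cst3, Fth1, Eef1a1, Calm2, Actb, Bdnf, Nr4a3, Egr2, Ier2, Btg2, Hapln2, Foxj1 and the 3 steadiest genes were chosen after their values were seen. 2 symbols had become dates in a spreadsheet and are not named. Of all symbols, 13147 were found in the RefSeq GRCr8 table, which was used for names and for the sequences printed. The count table does not show whether its starts are counted from 0 or 1. Transcripts of mitochondria were not analysed here.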

Additional observations from a re-analysis of the deposited data

Results flagged for a closer look

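A value was flagged where 1 of the 5 libraries lay so far from the other 4 that its gap exceeded Dixon's 95% critical value (0.71 of the range for 5 samples). Of 144 values examined, 26 were flagged; chance alone flags about 1 in 20 groups, but many of these genes were named for a wide ratio or after their values were seen, so that share is no baseline for them, and genes that vary together are not separate evidence.

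In library 4 the choroid plexus list stood apart at 1871 summed CPM, with Ttr at 1048, Enpp2 at 440, Kl at 65.6 and F5 at 47.9 CPM. Igf2 at 127, Htr2c at 108, Ace at 63.5, Mfrp at 49.2 and Foxj1 at 11.3 CPM stood apart in the same library.

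In library 3 the myelin list stood apart at 18491 summed CPM, with Mbp at 11339, Bcas1 at 678, Mobp at 673 and Hapln2 at 56.3 CPM. Robo3 at 29.8 CPM and Kmt5c at 25.9 CPM stood apart there too. Fth1 at 2239 CPM, Serping1 at 30.7 CPM, Cd3e at 7.80 CPM and the lymphocyte list at 11.3 summed CPM were also high there, the last of these through Cd3e. App at 1771 CPM and Ndufs4 at 109 CPM were low there; Ndufs4 varied so little in all that its flag rests on a few CPM.

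In library 1 Atp5f1b stood apart at 1282 CPM and Prl at 7.18 CPM. In library 5 the glucocorticoid-responsive list stood apart at 791 summed CPM. Each of these rests on 1 animal, and what set that animal apart was not tested.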

How the results depend on the processing

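Genes detected in all libraries numbered 10680 to 12019 under every setting tried for them (other CPM thresholds, single transcript rows, no ribosomal RNA). Genes holding 50% of the counts numbered 529 to 801 (single transcript rows, per-length values, no ribosomal RNA, 1 library left out). By leading log2 distance, library 4 was the most distant under each of the scalings, filters and row choices tried. Lists whose highest library was at least 1.5 times the lowest numbered 12, but 5 as mean log2(CPM + 1) over the members, and 6 to 12 with 1 library left out (6 without library 3). Some of the 12, such as the lymphocyte and neutrophil lists, had mean sums under 10 CPM. Variable genes numbered 193, but 2815 with no filter on mean CPM, 51 at a mean of at least 50 CPM, 1431 at a ratio of 1.5, and 98 to 184 with 1 library left out (98 without library 3); other scalings gave 200 to 202. The common biological coefficient of variation was 13.5%, and 11.5% to 14.4% with 1 library left out (11.5% without library 3). The library with the highest summed level was the same in every setting for 25 of 40 lists and another in some setting for 15, among them neocortex, MHC and antigen presentation, and the Alzheimer list. The settings without ribosomal RNA and with length classes removed were chosen after seeing the data. No paired analysis was possible because 1 group was described and no groups were compared. Genes under 10 CPM are limited by depth.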

Other observations

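Some of the widest differences between animals fell outside the gene lists, in genes chosen after their values were seen. Robo3, an axon guidance receptor, had 5.41, 7.79, 29.8, 7.49 and 8.73 CPM in libraries 1 to 5, and Kmt5c, a histone methyltransferase, had 12.1, 11.9, 25.9, 9.04 and 11.0 CPM. Both were highest in library 3, the library with most myelin transcript. Atp2b4, a calcium pump of the plasma membrane, had 118, 176, 44.7, 85.7 and 67.6 CPM, and Rgs4, which shortens G protein signals, had 228, 248, 108, 75.2 and 84.4 CPM. They were highest in libraries 1 and 2, as Arc was.

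A further set was high in libraries 4 and 5. Kcnq5, a potassium channel that damps firing, had 87.9, 75.3, 68.2, 161 and 161 CPM. Lpl, the enzyme lipoprotein lipase, which the list of plaque-associated microglia holds but which neurons also make, had 49.5, 45.3, 38.1, 99.1 and 90.7 CPM, unlike Apoe and Trem2 of the same list, which were highest in library 3. Cnr1, the cannabinoid receptor of interneuron terminals, had 221, 269, 196, 420 and 359 CPM. No list was made for these genes and nothing was tested on them.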
